A study of Mus musculus with 6 samples.

Results

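The sodium-potassium ATPase, or sodium pump, uses ATP to carry sodium out of the cell and potassium in, and so restores the gradients that action potentials run down. A catalytic alpha subunit does the transport, a glycosylated beta subunit is needed for the pump to fold and reach the membrane, and small single-span proteins of the FXYD family bind the pump and tune its affinity for ions. In the cochlea the pump serves the spiral ganglion neurons and glia of the auditory nerve. It also serves the stria vascularis of the lateral wall, which keeps the endolymph rich in potassium. Described here are 6 genes, the beta subunits Atp1b1, Atp1b2 and Atp1b3 and the regulators Fxyd1, Fxyd6 and Fxyd7, which were chosen by symbol from the 24062 symbols counted.

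Expression was measured by RNA sequencing of auditory nerve dissected from the cochleae of young adult mice, with 3 wildtype libraries and 3 Vcan knockout libraries. Both groups carry the strain label C57BL/6 (the series' design text names the wildtype C57BL/6J), and each library held the nerves of both cochleae of 1 mouse. The comparison asks how the nerve's transcripts differ when versican, a proteoglycan of the extracellular matrix, is deficient. The labels name no allele, no driver of the deletion and no sex of the animals, and do not say whether the wildtype mice were littermates. Libraries held 74530860 to 92513887 counts. Markers of neurons were abundant in every library, with Snap25, a synaptic protein, at 1534 to 3502 CPM (a gene's count relative to its library's total, scaled between libraries). Vcan itself averaged 8.43 ± 1.15 CPM in the wildtype and 3.67 ± 1.54 CPM in the knockout libraries (SD, n = 3). After Benjamini-Hochberg adjustment over all genes this passed in DESeq2 (adjusted p = 0.0342) but not in the quasi-likelihood test of edgeR (adjusted p = 0.558).

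The FXYD family is named for a run of residues, phenylalanine, any residue, tyrosine and aspartate, that stands before the membrane span. The coding stretches that hold it are shown because they are the feature by which the 3 regulators belong together, and because they show how far the genes differ as read targets. They are taken from the mouse GENCODE vM21 transcripts and read 5′ to 3′, with the 4 codons of the signature in capitals.
Fxyd1: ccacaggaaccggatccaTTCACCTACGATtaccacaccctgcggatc
Fxyd6: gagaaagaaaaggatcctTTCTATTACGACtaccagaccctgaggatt
Fxyd7: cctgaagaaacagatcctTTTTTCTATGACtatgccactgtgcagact
The signature begins at coding base 85 in Fxyd1 and Fxyd6 and at base 52 in Fxyd7, whose coding sequence has 80 codons against 92 and 94. No 50-base stretch of the longest protein-coding transcript of Fxyd1, Fxyd6 or Fxyd7 occurs in a transcript of another gene, nor does one of Atp1b2. In Atp1b1 18.9% of such stretches also occur in Nme7, and in Atp1b3 11.7% occur in Gm1848, for which no value was used here.

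The genes lie in 5 places in the genome (GRCm38, GENCODE vM21). Atp1b1 (gene identifier 11931) is on chromosome 1 from 164437109 to 164458355, Atp1b2 (11932) on chromosome 11 from 69599736 to 69605942, and Atp1b3 (11933) on chromosome 9 from 96332655 to 96364442. Fxyd6 (59095) is on chromosome 9 from 45370185 to 45396159. Fxyd7 (57780, chromosome 7, 31042513 to 31051467) and Fxyd1 (56188, chromosome 7, 31051678 to 31057199) are 210 bases apart on the same strand, with Fxyd5 a further 31 bases beyond Fxyd7. The 3′ end of Atp1b1 shares 575 exon bases with Nme7 on the opposite strand. Whether counting used strand is not given, so reads from there cannot be assigned to either gene. Nme7 was counted at only 6.42 to 9.94 CPM.

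None of the 6 genes differed between knockout and wildtype nerve beyond the spread between libraries. With edgeR 0 of 6 passed an adjusted p under 0.05, where 0.138% of the 16722 genes tested did, and 0 of 6 passed in DESeq2, where 1.36% did. At an unadjusted p under 0.05 the count was 0 of 6 in edgeR and 1 of 6 in DESeq2 (Atp1b2), against 5.2% and 5.88% of all genes. The groups overlapped for all 6, while for 10.3% of all genes tested they did not overlap. By the sign of the fold change 3 genes were higher in the knockout libraries and 3 lower, and their median was 0.03 on the log2 scale, beside −0.01 over all genes tested. All 6 passed the filter on low counts, so none was left out.

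**Figure D1:**
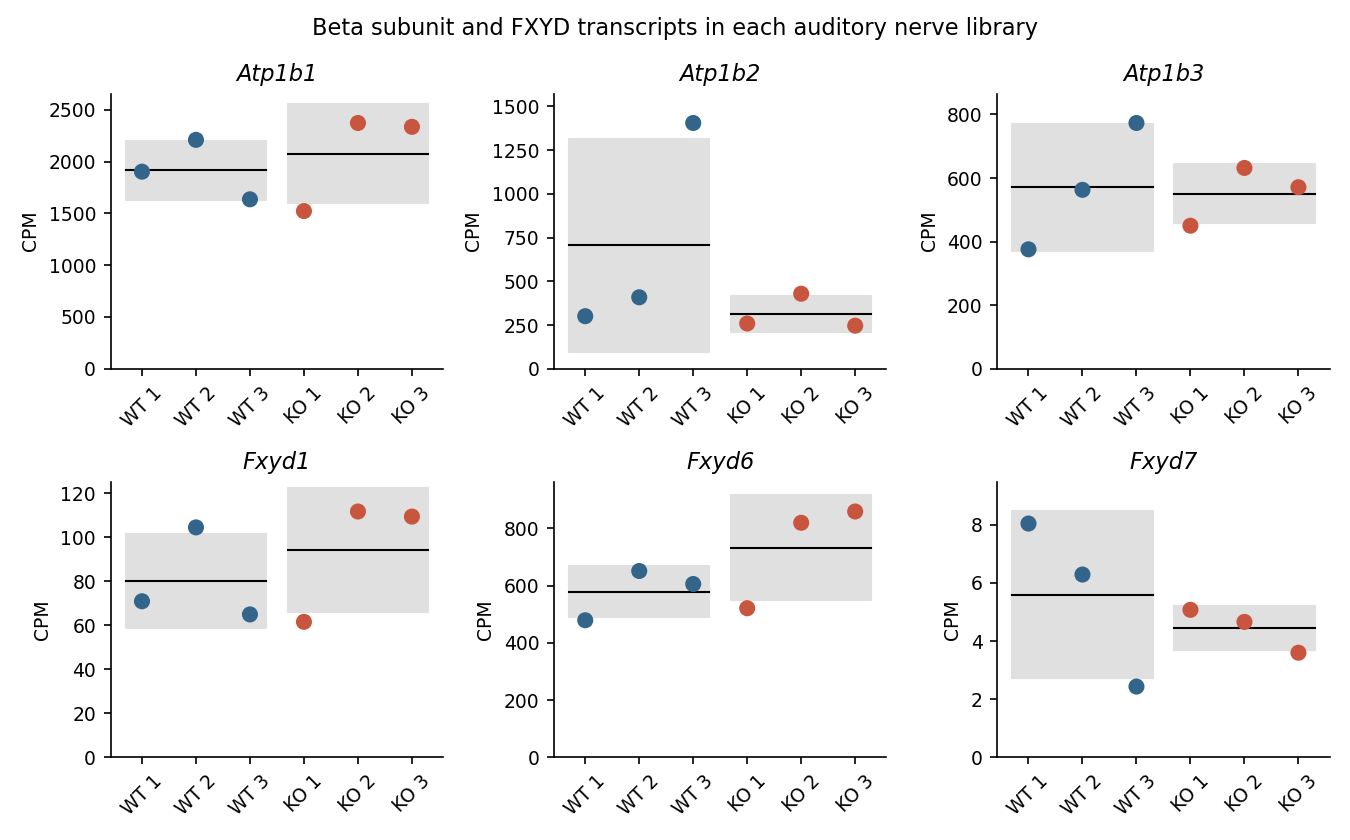
Library-scaled counts (CPM, linear axes from 0) of each gene in the 3 wildtype (WT, blue) and 3 Vcan knockout (KO, red) libraries. Points are libraries, lines are group means and grey bands are ± 1 SD; Atp1b2 in wildtype replicate 3 (1405 CPM) stands above the 5 other libraries (246 to 429 CPM).

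Among the beta subunits, Atp1b1 encodes the most widespread isoform, found in neurons and in epithelia. It was counted at 1902, 2209 and 1635 CPM in wildtype replicates 1 to 3 and at 1522, 2372 and 2335 CPM in knockout replicates 1 to 3. Knockout replicate 1 was the lowest of the 6 and knockout replicates 2 and 3 the highest, so the knockout range enclosed the wildtype range. On the log2 scale the fold change was 0.12 (SE 0.24, 95% interval −0.45 to 0.69, edgeR). That interval spans 0.73-fold to 1.61-fold. The knockout libraries that were high for Atp1b1 were also the highest for Fxyd1 and Fxyd6.

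Atp1b2 encodes the beta 2 subunit, known from glia as the adhesion molecule on glia and found in the stria vascularis as well. Its counts were 301, 409 and 1405 CPM in wildtype replicates 1 to 3 and 259, 429 and 246 CPM in knockout replicates 1 to 3. Wildtype replicate 3 was 4.67 and 3.44 times as high as wildtype replicates 1 and 2, whereas both of those lay inside the knockout range. Over all libraries the log2 fold change was −1.18 (SE 0.60, interval −2.60 to 0.25, edgeR adjusted p = 1.00), with an unadjusted p of 0.0913 in edgeR and 0.0273 in DESeq2 (adjusted p = 0.579). The authors' deposited table gives Atp1b2 an adjusted p of 0.59, with a smaller log2 fold change of −0.60 (SE 0.28). Without wildtype replicate 3 the log2 fold change was −0.19 (interval −0.92 to 0.53, edgeR adjusted p = 0.999), so most of the difference rested on that library.

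Markers of the stria vascularis were high in the same wildtype library as Atp1b2. All 9 markers of that list were highest in wildtype replicate 3, where they summed to 3622 CPM against 491 and 483 CPM in wildtype replicates 1 and 2. The sums in knockout replicates 1 to 3 were 546, 824 and 360 CPM, so in each group the library with the highest Atp1b2 had the highest strial sum. Kcne1 and Kcnq1, which together form the channel that secretes potassium from strial marginal cells, were at 287 and 123 CPM in wildtype replicate 3. In wildtype replicates 1 and 2 Kcne1 was at 0.492 and 8.42 CPM and Kcnq1 at 4.22 and 6.90 CPM. Knockout replicate 2 had 55.2 CPM of Kcne1 against 0.264 and 1.01 CPM in the other knockout libraries. Within the knockout group 7 of the 9 markers were highest in replicate 2, as Atp1b2 was, and 2 were highest in replicate 1. These 2 are Kcnj10, a potassium channel gene of strial intermediate cells and glia, and Wnk2, a kinase gene. Kcnj10 was at 187, 200 and 492 CPM in wildtype and 194, 168 and 125 CPM in knockout replicates 1 to 3. Wnk2 was at 151, 106 and 219 CPM in wildtype and 165, 110 and 112 CPM in knockout replicates 1 to 3. Lrp2, the marginal cell endocytic receptor megalin, was at 2289 CPM in wildtype replicate 3 and at 101 to 408 CPM in the others, with the 408 CPM in knockout replicate 2. No marker of the list was at 0 in all libraries. Slc12a2, the sodium, potassium and chloride cotransporter that works beside the pump in the stria, was likewise at 2414 CPM in wildtype replicate 3 and 401 to 769 CPM in the others. It is listed here with the markers of lateral wall and limbus fibrocytes, not with the 9 strial markers. Without wildtype replicate 3 and knockout replicate 2 together, the log2 fold change of Atp1b2 was −0.47 (interval −1.01 to 0.07, edgeR adjusted p = 0.999). The part of strial tissue in the level of Atp1b2 was not tested beyond these values, and in such bulk samples fewer cells of a type and less RNA per cell cannot be told apart.

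**Figure D2:**
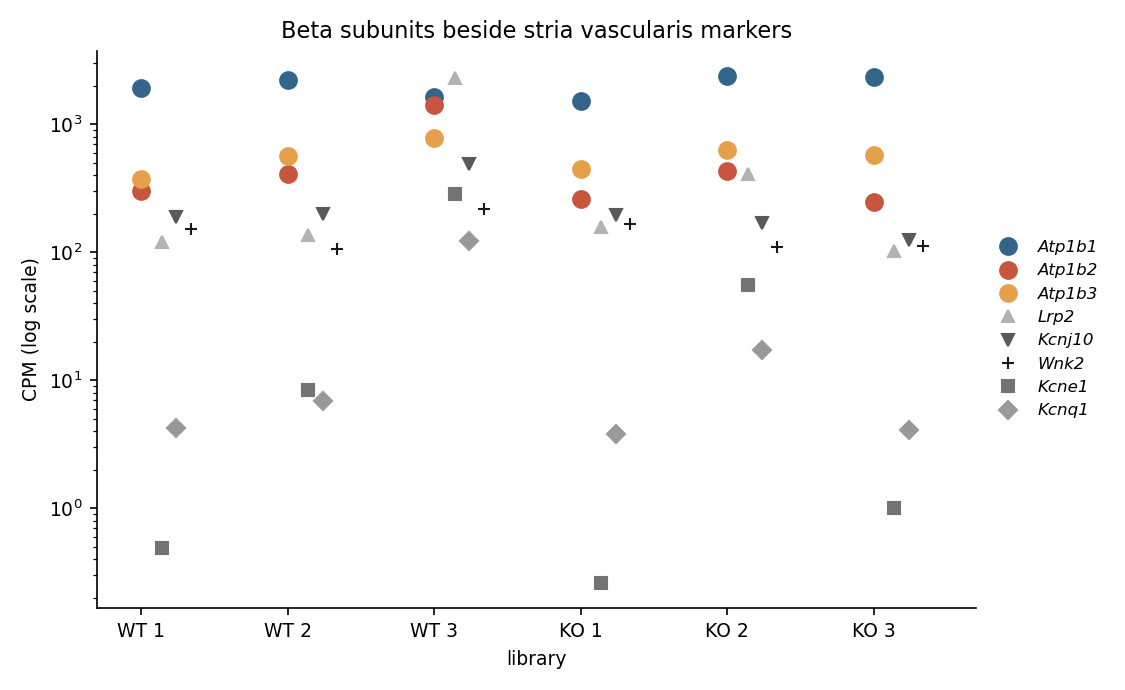
CPM (log axis) of the beta subunit genes (coloured circles) and of the strial markers Lrp2, Kcnj10, Wnk2, Kcne1 and Kcnq1 (grey and black symbols, drawn slightly to the right) in each wildtype (WT) and knockout (KO) library. Atp1b2 and all markers shown are highest in wildtype replicate 3; within the knockout group Atp1b2, Lrp2, Kcne1 and Kcnq1 are highest in replicate 2, and Kcnj10 and Wnk2 in replicate 1.

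Atp1b3 encodes the beta 3 subunit, which is broadly expressed. It was at 376, 563 and 773 CPM in wildtype replicates 1 to 3 and at 450, 632 and 571 CPM in knockout replicates 1 to 3. Wildtype libraries held both the lowest and the highest value, and all 3 knockout libraries lay between them. Between the group means the log2 fold change was −0.05 (SE 0.29, interval −0.73 to 0.63, edgeR), and it was 0.23 without wildtype replicate 3. Markers of lateral wall and limbus fibrocytes, led by Coch and Otos, summed to 11765, 14349 and 24144 CPM in wildtype and 9911, 19683 and 20135 CPM in knockout replicates 1 to 3. Of the 7 genes of that list 5 were highest in wildtype replicate 3, as Atp1b3 was.

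Among the regulators, Fxyd1 encodes phospholemman, a pump regulator that is controlled by phosphorylation and best known from heart and skeletal muscle. Fxyd1 was at 71.0, 104.5 and 65.0 CPM in wildtype replicates 1 to 3 and at 61.6, 112 and 109 CPM in knockout replicates 1 to 3. Knockout replicates 2 and 3 were the highest of all, wildtype replicate 2 was close to them, and knockout replicate 1 was the lowest. For the genotype contrast this gave a log2 fold change of 0.23 (SE 0.29, interval −0.45 to 0.92, edgeR). Lgi4, a secreted Schwann cell protein whose gene lies 2142 bases from Fxyd1 on the opposite strand, averaged 53.5 ± 3.50 CPM in the wildtype and 44.1 ± 3.61 CPM in the knockout libraries (SD, n = 3). Its groups did not overlap, but it did not pass correction (log2 fold change −0.28, edgeR adjusted p = 1.00).

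Fxyd6 encodes phosphohippin, a regulator found in brain and in the inner ear, and was the most abundant FXYD transcript here. It was at 479, 651 and 605 CPM in wildtype replicates 1 to 3 and at 521, 819 and 859 CPM in knockout replicates 1 to 3. Knockout replicates 2 and 3 exceeded every wildtype library, while knockout replicate 1 lay within the wildtype range. Its log2 fold change was 0.34 (SE 0.24, interval −0.23 to 0.92, edgeR adjusted p = 1.00), or 0.85-fold to 1.89-fold. Without knockout replicate 1 it was 0.54 (interval 0.07 to 1.01, unadjusted p = 0.0319, edgeR adjusted p = 0.457). In that fit 10.4% of all genes had an unadjusted p under 0.05. Fxyd2, its neighbour 3509 bases downstream, was much lower at 4.52 to 17.0 CPM, with no call.

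Fxyd7 encodes a regulator known from neurons of the brain, and was the least abundant of the genes. It was counted at 8.04, 6.29 and 2.43 CPM in wildtype replicates 1 to 3 and at 5.07, 4.66 and 3.60 CPM in knockout replicates 1 to 3. Wildtype replicate 3 was the lowest of the 6 libraries and the other wildtype libraries the highest, so the knockout values lay between. These values rest on 208 to 670 reads per library. For the 208 reads of wildtype replicate 3 the exact Poisson interval was 181 to 238 (95%, counting error only), so the gap to the 565 and 670 reads of the other wildtype libraries exceeds counting error. The log2 fold change was −0.33 (SE 0.43, interval −1.37 to 0.70, edgeR adjusted p = 1.00).

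Without wildtype replicate 3 the Fxyd7 difference was −0.70 on the log2 scale (interval −1.29 to −0.10), with an unadjusted p of 0.0291 and an edgeR adjusted p of 0.597. In that fit 7.23% of all genes had an unadjusted p under 0.05. Neuron markers were low in the same library: 9 of the 12 were lowest in wildtype replicate 3, and they summed to 7729 CPM there against 13609 and 13188 CPM in wildtype replicates 1 and 2. In knockout replicates 1 to 3 the neuron sums were 12979, 13449 and 14713 CPM. Of the astrocyte markers all 10 had a lower fold change in knockout nerve, with sums of 1511, 1960 and 1781 CPM in wildtype and 1242, 1456 and 1087 CPM in knockout replicates 1 to 3. Gjb6, which is also on the fibrocyte list, was at 354, 508 and 1009 CPM in wildtype and 428, 670 and 558 CPM in knockout replicates 1 to 3. The astrocyte sums thus rest in part on a gene that both lists share, largely so in wildtype replicate 3 and in knockout replicates 2 and 3. The gap between the sums of the groups is therefore not one of astrocyte genes alone. The part of the neuron and astrocyte markers in the Fxyd7 values was not tested.

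**Figure D3:**
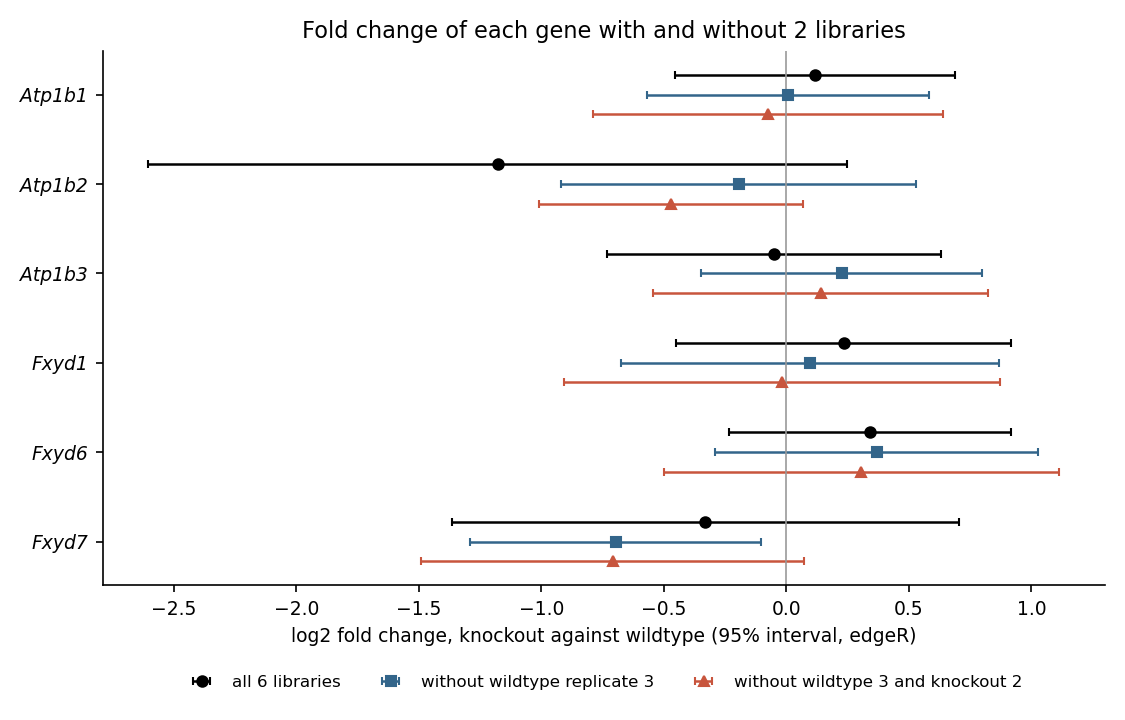
Log2 fold change of knockout against wildtype for each gene with its 95% interval (edgeR), with all 6 libraries (black circles), without wildtype replicate 3 (blue squares), and without wildtype replicate 3 and knockout replicate 2 (red triangles). The Atp1b2 value moves from −1.18 to −0.19 without wildtype replicate 3; with all libraries every interval includes 0.

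To compare levels between genes, CPM was divided by the length of the longest protein-coding transcript. In wildtype nerve Atp1b1 was highest, at 742 ± 111 CPM per kb, followed by Fxyd6 at 323 ± 49.9, Atp1b3 at 286 ± 99.7 and Atp1b2 at 248 ± 214 CPM per kb (SD, n = 3). Fxyd1 was at 129 ± 34.4 and Fxyd7 at 8.06 ± 4.14 CPM per kb. The ranges of Atp1b1 and Fxyd6 were apart, as were those of Fxyd1 and Fxyd7. Fxyd6, Atp1b3 and Atp1b2 overlapped in turn, and so did Atp1b2 and Fxyd1. In knockout nerve Atp1b1 was at 805 ± 186, Fxyd6 at 410 ± 103, Atp1b3 at 276 ± 46.4, Fxyd1 at 152 ± 45.7, Atp1b2 at 110 ± 35.9 and Fxyd7 at 6.41 ± 1.10 CPM per kb (SD, n = 3). By these lengths Atp1b2 and Fxyd1 exchanged places between the groups, with ranges that overlapped in both. Without wildtype replicate 3 Atp1b2 averaged 125 ± 26.9 and Fxyd1 142 ± 38.3 CPM per kb in wildtype nerve (SD, n = 2), and the groups had the same order. The order also depends on the length used (an alternative chosen, like the one without the library, after seeing the data), since all exons together come to 2186 bases for Fxyd1 and 4107 for Fxyd6, against 620 and 1789 for the longest protein-coding transcripts. With all exons Fxyd6 was at 141 ± 21.7 CPM per kb in wildtype nerve, below Atp1b3 at 239 ± 83.2 and Atp1b2 at 173 ± 149 (SD, n = 3). Fxyd1 then stood at 36.7 ± 9.76 CPM per kb, below Atp1b2 in both groups. Atp1b1 was highest and Fxyd7 lowest with either length.

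Shares within a library do not depend on library scaling. Of the length-scaled beta subunit counts, Atp1b1 made up 71.5%, 66.8% and 41.8% in wildtype replicates 1 to 3 and 65.1%, 66.3% and 70.8% in knockout replicates 1 to 3. The Atp1b2 share was 10.3%, 11.2% and 32.6% in wildtype and 10.05%, 10.9% and 6.78% in knockout libraries. Wildtype replicate 3 stood apart, while the other 5 libraries lay within 6.78% to 11.2% for Atp1b2. The Atp1b2 share differed by −8.79 percentage points between group means (exact permutation test, 2-sided p = 0.2, adjusted over the 6 shares p = 0.84), and by −1.5 points without wildtype replicate 3. The Atp1b1 share differed by 7.36 points, and by −1.74 points without that library. With 3 libraries against 3 this test cannot give a p below 0.1.

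In percentage points and over all 6 libraries, the FXYD shares varied less than those of Atp1b1 and Atp1b2, where wildtype replicate 3 stood apart. Fxyd6 made up 67.2% to 75.8% of length-scaled FXYD counts in wildtype and 71.0% to 73.2% in knockout libraries, and Fxyd1 made up 23.5% to 31.1% and 24.97% to 27.9%. The Fxyd7 share was 0.786% to 2.95% in wildtype and 0.784% to 1.84% in knockout libraries. The group means differed by −1.35 percentage points for Fxyd1, 1.93 for Fxyd6 and −0.58 for Fxyd7 (exact permutation test, 2-sided p = 0.7, 0.5 and 0.6), and every range overlapped. Single libraries moved these differences: without wildtype replicate 3 they were −3.57, 4.66 and −1.09 points. Without wildtype replicate 2 the Fxyd1 difference was 0.27 and the Fxyd6 difference 0.375 points, and without wildtype replicate 1 the Fxyd7 difference was −0.0083 points. Dividing by the length of all exons gave −1.43 points for Fxyd7.

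**Figure D4:**
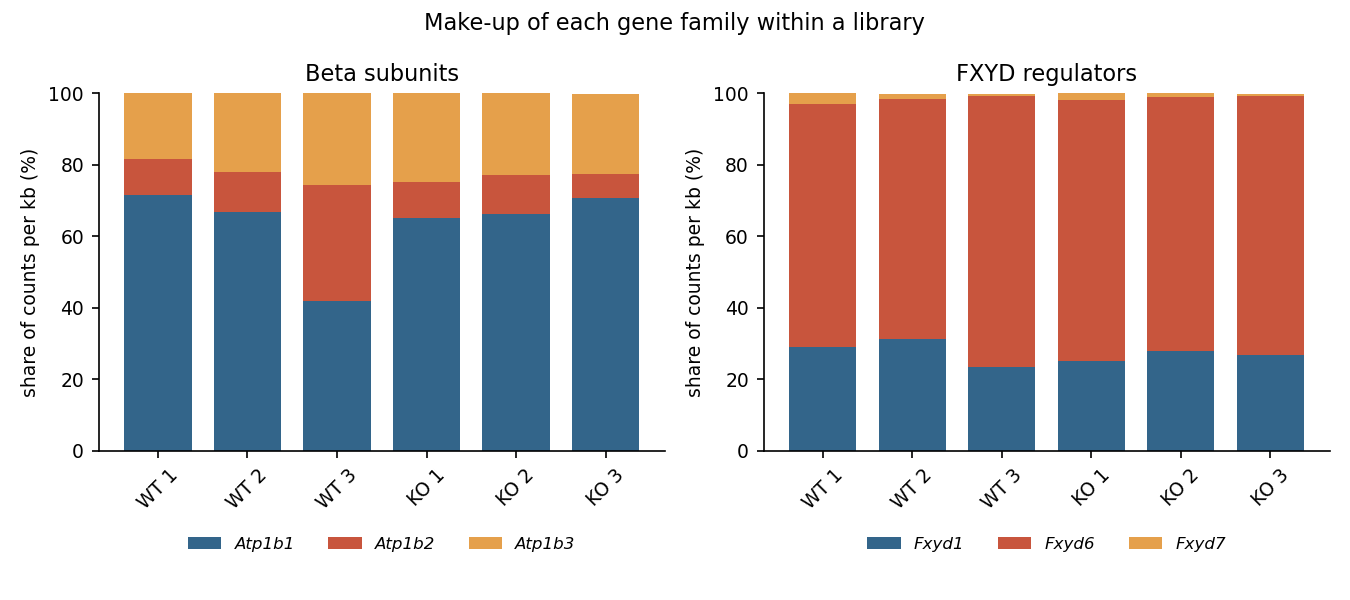
Share of each gene in the length-scaled counts of its family (%), for the beta subunits (left) and the FXYD regulators (right), in each wildtype (WT) and knockout (KO) library. Atp1b2 takes 32.6% of beta subunit counts in wildtype replicate 3 and 6.78% to 11.2% elsewhere.

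The genes did not follow 1 pattern over the libraries. Likeness was measured as the root mean square difference between log2 CPM profiles over the 6 libraries, each centred on its own mean. Atp1b1 and Fxyd1 were closest to each other (0.138), then Fxyd1 and Fxyd6 (0.195) and Atp1b1 and Fxyd6 (0.199), and these 3 were high in knockout replicates 2 and 3 and low in knockout replicate 1. Atp1b2 and Fxyd7 were farthest apart (1.28), with wildtype replicate 3 the highest library of Atp1b2 and the lowest of Fxyd7. Against the mean profiles of the marker lists, Atp1b1 was nearest to the myelinating Schwann cell list (0.157) and Atp1b3 to the lateral wall and limbus fibrocyte list (0.193). Fxyd7 was nearest to the neuron list (0.394), with the satellite and nonmyelinating glia list almost as near (0.408). Atp1b1 (0.274) and Fxyd1 (0.371) were nearer to the neuron list than Fxyd7 was, and Fxyd6 (0.394) was as near. Atp1b2 was nearest to the fibrocyte (0.602) and stria (0.677) lists, though not close to either. All profiles share the same 6 libraries, so these distances are a description.

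Over all named genes of at least 10 CPM, the closest profiles were those of Taf11 (0.02) and Aasdhppt for Atp1b1, Rlbp1 (0.17) and Bmpr1b for Atp1b2, and Tmem159 (0.0645) and Plp2 for Atp1b3. For Fxyd1 they were Coa6 (0.0357) and Camk2n1, for Fxyd6 Oard1 (0.0487) and Hypk, and for Fxyd7 Ncan (0.0936), the neurocan gene, and Fam81a. Ncan was at 24.9, 21.3 and 9.34 CPM in wildtype and 17.0, 15.5 and 12.7 CPM in knockout replicates 1 to 3, the same order of libraries as Fxyd7. Rlbp1 was highest in wildtype replicate 3, as Atp1b2 was, at 39.1 CPM against 8.51 to 12.5 CPM in the other libraries. These genes were picked from 10482 candidates by their likeness over the same 6 libraries. Sharing an order of libraries or a highest library therefore follows from the choice.

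Of 9 other sodium pump and FXYD genes, 8 were tested: 4 had a higher and 4 a lower level in the knockout libraries, and their median was 0.01 on the log2 scale. In edgeR 0 were called, against 0.138% of all genes tested, and 1 had an unadjusted p under 0.05, against 5.2% of all genes. In DESeq2 1 was called, against 1.36% of all genes. In both tools that gene was Atp1a4, the alpha subunit best known from sperm (chromosome 1, 172223513 to 172258414), which was low in both groups. Atp1a4 was counted at 1.40, 0.823 and 0.889 CPM in wildtype and at 6.52, 4.72 and 4.0 CPM in knockout replicates 1 to 3, with no overlap. This gave a log2 fold change of 2.29 (SE 0.34, interval 1.49 to 3.09), with adjusted p = 0.116 in edgeR and 2.18e-08 in DESeq2. The authors' deposited table gives Atp1a4 an adjusted p of 1.73e-08, with a smaller log2 fold change of 1.64 (SE 0.25). Without each library in turn the log2 fold change of Atp1a4 was 2.07 to 2.57, and it did not pass in edgeR in any of these fits.

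Among other ion pumps, the transporters that draw on the sodium gradient and genes of pump partners, 0 were called in edgeR and 0 in DESeq2. Over all genes tested the shares called were 0.138% and 1.36%, and 5.2% had an unadjusted p under 0.05 in edgeR. Of 11 other P-type pump genes 8 were tested, 4 higher and 4 lower (median log2 fold change −0.06). The endoplasmic reticulum calcium pump Atp2a2 was at 619 ± 150 and 653 ± 16.7 CPM, and the plasma membrane calcium pump Atp2b2 at 260 ± 90.0 and 283 ± 31.5 CPM (wildtype and knockout, SD, n = 3). Atp2c1, a Golgi calcium and manganese pump, was at 158 ± 6.12 and 204 ± 15.8 CPM with no overlap (log2 fold change 0.37, edgeR adjusted p = 0.783). Atp2c1 was the 1 pump gene with an unadjusted p under 0.05 (0.0229). Of the 16 transporter genes 4 were higher and 12 lower (median −0.18). The glial glutamate transporter gene Slc1a2 was the 1 with an unadjusted p under 0.05, at 112 ± 31.8 CPM in wildtype against 68.6 ± 12.4 CPM in knockout nerve (SD, n = 3), with overlap. Its adjusted p in edgeR was 0.827. The potassium and chloride cotransporter Slc12a7 was at 523 ± 113 and 587 ± 120 CPM (wildtype and knockout, SD, n = 3). Of 7 genes listed as pump partners 1 was higher and 6 lower (median −0.21), with 0 at an unadjusted p under 0.05. They include the matrix proteoglycan agrin, a ligand of the pump (Agrn, 201 ± 23.2 and 177 ± 40.0 CPM), and the astrocyte membrane proteins Hepacam (43.0 ± 13.7 and 37.2 ± 3.02 CPM) and Mlc1 (41.0 ± 19.2 and 26.1 ± 6.96 CPM, SD, n = 3). The ranges of all 3 overlapped between the groups.

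The marker lists of cell types gave 0 calls in edgeR, where 0.138% of all genes tested were called. At an unadjusted p under 0.05 in edgeR were 4 of 10 astrocyte, 2 of 8 Schwann cell and 2 of 9 oligodendrocyte genes. So were 1 of 7 macrophage, 1 of 6 endothelial and 1 of 4 tested marrow genes, against 5.2% of all genes tested. The count was 0 of 12 neuron, 0 of 8 satellite and nonmyelinating glia, 0 of 9 strial, 0 of 7 fibrocyte and 0 of 8 skeletal muscle genes. In DESeq2 2 of 10 astrocyte genes passed, against 1.36% of all genes. They were the water channel gene Aqp4 (adjusted p = 0.0036) and Cldn10 (adjusted p = 0.0178). Summed levels in wildtype and knockout libraries were 7716 to 13548 and 8086 to 10931 CPM for 8 myelinating Schwann cell genes, 2843 to 5244 and 2377 to 3559 CPM for 8 satellite and nonmyelinating glia genes, and 1198 to 1975 and 1005 to 1477 CPM for 9 oligodendrocyte genes. They were 186 to 191 and 130 to 163 CPM for 7 macrophage genes and 212 to 232 and 230 to 245 CPM for 6 endothelial genes. The 6 bone marrow and red cell genes summed to 20.4 to 57.2 and 6.83 to 68.6 CPM, with the globin gene Hbb-bs at 0 in all libraries. The skeletal muscle list, at 381 to 756 and 528 to 719 CPM, consisted almost wholly of Pvalb, which neurons also express, while the muscle actin gene Acta1 was at 0.224 to 3.59 CPM.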

How the data were processed

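The submitters' processing notes name the build mm10 and the tools HTSeq and DESeq2, without versions or roles. For the aligner and the strand setting, the sources used here give nothing. The deposited table holds raw counts made by the authors for 6 libraries. It also holds, per the file headers, a mean normalised signal, log2 fold changes with standard errors, a test statistic (a score) and p-values, which are the authors' own and are used only where their table is named.

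Of 24067 rows, 5 symbols appeared on 2 rows with identical counts and were joined, and 3878 symbols had 0 counts. In R 4.3.3, edgeR 4.0.16 was run on the deposited counts (filterByExpr, 16722 genes, TMM factors 0.964 to 1.02, robust quasi-likelihood F test, 2-sided, Benjamini-Hochberg over all genes, threshold 0.05, no covariate). SE is the log2 fold change over the square root of F, and 95% intervals use the test's degrees of freedom. CPM is TMM-scaled. The fit was tested on simulated data. DESeq2 1.42.0, other scalings and filters, a replicate block and leaving out each library were alternatives.

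The 6 genes and the lists were chosen with earlier results of these data known. Named genes are the 6, Vcan, called (edgeR or DESeq2) or else most abundant genes of the related lists, the most abundant markers, neighbours within 5000 bases and the 2 nearest profiles per gene. Kcnq1, Cldn10 and Slc1a2 fall outside this rule and were named after their values were seen. Some genes the rule names are not reported here. Nothing says that litters or preparation days were shared, so p-values measure the spread between these animals and their preparations. The names of the count columns also carry running numbers, in separate blocks for the wildtype and the knockout libraries. What these numbers stand for is not given, and any difference tied to them cannot be told apart from genotype. No 2 libraries agreed within sampling noise (lowest chi-square per degree of freedom 39.9).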

Additional observations from a re-analysis of the deposited data

How the results depend on the processing

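The lowest adjusted p of the 6 genes in any of 14 fits was 0.457. Of 78 alternative log2 fold changes 72 kept their sign. Leaving out each library in turn gave 0.00 to 0.30 for Atp1b1, −1.54 to −0.19 for Atp1b2, −0.28 to 0.23 for Atp1b3, 0.09 to 0.47 for Fxyd1, 0.20 to 0.54 for Fxyd6 and −0.70 to 0.03 for Fxyd7. Without wildtype replicate 3 and knockout replicate 2 together, an alternative chosen after seeing the data, Atp1b1 turned to −0.08, Atp1b3 to 0.14 and Fxyd1 to −0.02. Atp1b3 was also positive without wildtype replicate 3 (0.23) and without knockout replicate 1 (0.08), and Fxyd7 without wildtype replicate 1 (0.03).

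Among other genes, the sign turned without wildtype replicate 3 for Atp2a2 (−0.10), Atp2b2 (−0.07) and Slc12a2 (0.30). It turned without both libraries for Atp2a2 (−0.06) and Slc12a2 (0.02). Slc12a7 turned to −0.00 without wildtype replicate 2 and −0.01 without knockout replicate 1. Leaving out each library in turn gave ranges of −0.10 to 0.26 for Atp2a2, −0.07 to 0.44 for Atp2b2, −1.39 to 0.30 for Slc12a2 and −0.01 to 0.26 for Slc12a7. The count of called genes, 23, became 252 in DESeq2, 3 to 14 without each library, and 1 without both libraries. The causes were not tested.

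With the replicate number of the titles as a block 3 genes were called, and Atp1b2 was at −0.84. Deviations of libraries with the same title number correlated at 0.426, 0.216 and −0.151 across genes, and not every library was nearest to its own number. The count columns number knockout replicates 2 and 3 as 3 and 4, which leaves 2 shared numbers, with correlations of 0.426 and 0.21. Neither numbering shows that the samples are paired, and which is right is not known, so the blocked values may rest on a wrong pairing. No share difference moved by more than the SD between libraries within the groups. That SD includes the library left out, and wildtype replicate 3 widens it for Atp1b1 (11.5 points) and Atp1b2 (9.06 points). Staying within it therefore does not show that these differences were stable. The share differences of Atp1b1, Atp1b3 and Fxyd1 changed sign when a library was left out (−1.74 to 13.1, −0.414 to 3.24 and −3.57 to 0.27 points). Counting error (the reach of the 95% Poisson interval to either side of the count) was 13.8% for Fxyd7 in wildtype replicate 3 and at most 2.88% for the other 5 genes.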
